A study of Mus musculus with 2 samples.

Results

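The small leucine-rich proteoglycans (SLRPs) described here are the products of *Dcn*, *Lum*, *Bgn*, *Ogn*, *Aspn*, *Fmod*, *Prelp* and *Omd*, decorin, lumican, biglycan, osteoglycin, asporin, fibromodulin, prolargin and osteomodulin. They were chosen by symbol from the gene list of the counts, and all 8 were found among its 28000 genes. The counts come from 10x 3′ single-cell RNA sequencing of tdTomato+ cells sorted from mouse trunk skin at E15.5, with 1 HIRA wild type (WT) and 1 HIRA knockout (KO) library, in a study that asked how loss of the histone chaperone HIRA affects melanoblast development. According to the study's methods, both embryos carried the autosomal TyrCreB transgene and the Lox-STOP-Lox tdTomato reporter, with Hira wt/wt in the WT and Hira fl/fl in the KO. The strain background of both was mixed but close to C57BL/6J, whereas the study's methods give the *Hira* fl/fl and TyrCre lines as C57Bl/6. The libraries were taken to be WT1, from a female, and KO1, from a male of the same litter, although the labels do not name these embryos. Cre was driven by the *Tyr* promoter, which serves the melanocytic lineage. The study states that this promoter is also active in glial cells and some other lineages. A tdTomato+ cell outside the melanocytic lineage marks recombination elsewhere, and whether *Hira* was deleted in each such cell was not measured. The study gives the sorted cells as mostly but not all tdTomato+, so some cells of any class may be unrecombined. With 1 library per genotype no test was possible, genotype and sex vary together and cannot be told apart, and every interval below is a 95% interval of the counting error only.

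SLRPs are secreted proteins with a core of leucine-rich repeats, most of them carrying glycosaminoglycan chains, that bind collagen in the extracellular matrix. They set the spacing and thickness of collagen fibrils and bind growth factors of the TGF-β and BMP families. In dermis, decorin and lumican are abundant products of fibroblasts, and loss of either in mice gives fragile skin with irregular fibrils.

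In the 1546 barcodes of the WT library 7073939 unique molecular identifiers (UMIs) were counted, and in the 846 barcodes of the KO library 5049514. The median barcode had 3961 UMIs in the WT and 5152.5 in the KO library. The libraries shared 0 cell barcodes. *Xist* had 16822 UMIs in the WT and 23 in the KO cells, and *Eif2s3y*, on the Y chromosome, had 0 and 220, as the sexes given in the study's sample list require. *Hira* had 82 UMIs (11.6 counts per 1000000 UMIs, CPM) in the WT and 50 (10.0 CPM) in the KO cells. The 3′ tag may lie outside the deleted part, and the deleted exon is not stated in the sources used here, so the *Hira* count does not check the genotype. Of the cells kept after filtering, 52 of 1540 WT and 68 of 828 KO cells had a UMI of the tdTomato reporter. These counts are too sparse to show which cells were recombined.

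After filtering, 1540 WT and 828 KO cells were clustered together without the SLRP family genes, and the clusters were named from marker genes. The mesenchymal-like class held 217 WT cells (14.1% of the library) and 255 KO cells (30.8%), and *Col1a2*, *Col3a1* and *Pdgfra* were among its raised markers. It was made of 3 clusters, each called by a marker. The *Crabp1* subtype held 172 WT and 102 KO cells, the *Mfap4* subtype, also led by *Angptl1*, *Aspn* and *Sfrp2*, held 22 and 119, and the *Mfap5* subtype, also led by *Clec3b* and *Ly6a*, held 23 and 34. In the WT library the *Crabp1* subtype therefore made up 79.3% of the class, whereas in the KO library the *Mfap4* subtype was the largest, with 46.7%, beside 40% for the *Crabp1* subtype. The class depends on settings, since no cluster was named the *Mfap4* subtype at 500 or more genes per cell, where the class held 192 WT and 131 KO cells, or with each library clustered alone, where it held 241 and 149. These names are rebuilt ones and do not come from the study, so clusters and shares may differ from its own for that reason.

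Most SLRP UMIs were in the mesenchymal-like class. Summed over the 8 genes, it held 7411 of 8356 SLRP UMIs of the WT library (88.7%) and 9853 of 10912 of the KO library (90.3%). UMIs were counted at 3′ ends, so levels were not divided by gene length. *Dcn* and *Lum* led in both libraries, with 3088 and 3058 CPM in the WT class, whose intervals overlap (2984 to 3195 and 2954 to 3164), and 3025 and 2146 CPM in the KO class, whose intervals do not. *Bgn* (338 CPM) and *Aspn* (291 CPM) followed in the WT class with overlapping intervals, then *Ogn* (118 CPM). In the KO class the order was *Aspn* (578 CPM), *Bgn* (444 CPM) and *Ogn* (308 CPM), each apart from the next. *Prelp* and *Fmod* were low in both, and their intervals overlapped within each library. *Omd*, which codes for a keratan sulfate proteoglycan of mineralised tissue, had 0 UMIs in every class and library, which allows up to 2.80 CPM in the WT and 1.99 CPM in the KO mesenchymal-like cells.

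**Figure D1:**
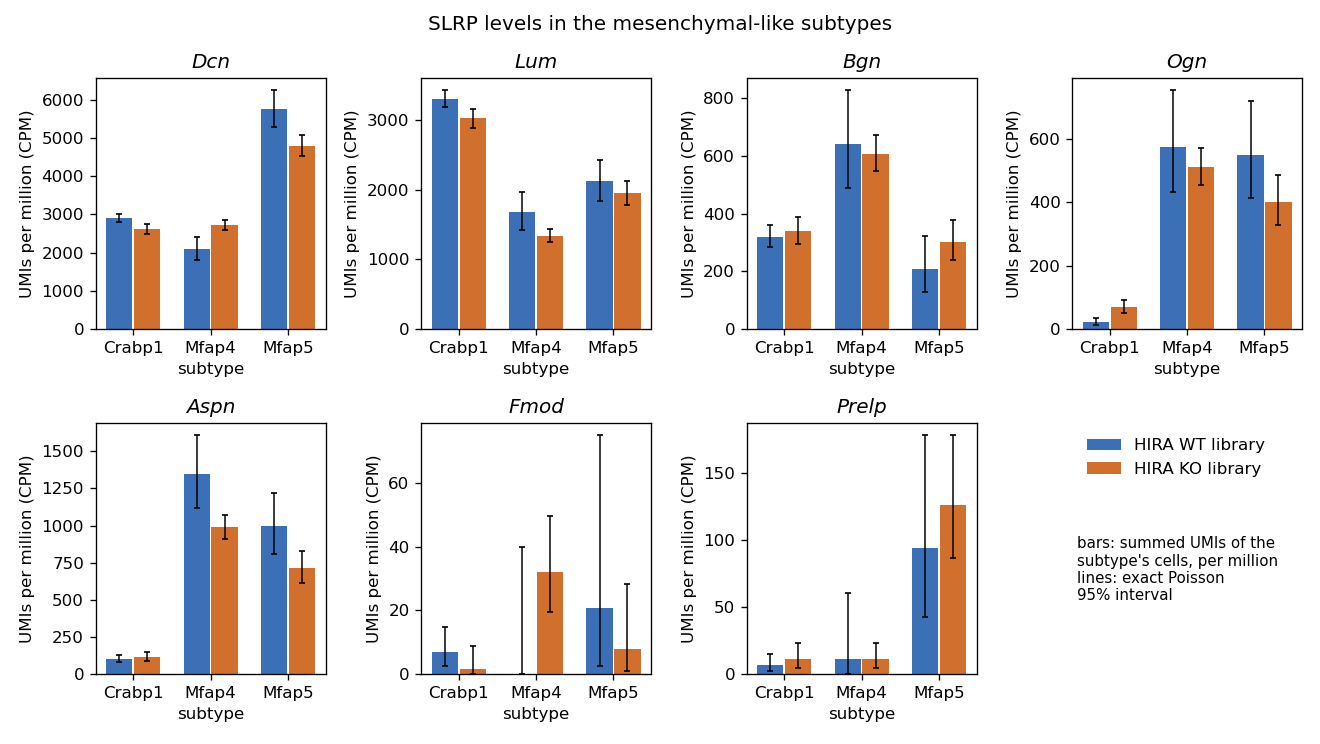
Levels of the SLRP genes (CPM) in the 3 mesenchymal subtypes of the WT and the KO library, with exact Poisson 95% intervals. *Lum* is highest in the *Crabp1* subtype, *Dcn* and *Prelp* in the *Mfap5* subtype, and *Ogn* and *Aspn* are higher in the *Mfap4* and *Mfap5* subtypes than in the *Crabp1* subtype, in both libraries.

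Among the class I genes, whose proteins are the chondroitin or dermatan sulfate proteoglycans decorin and biglycan and their relative asporin, the libraries differed by gene. *Dcn*, for the SLRP that binds fibrillar collagen and TGF-β, had 3310 UMIs in the WT and 4553 in the KO class, a log2 ratio of KO to WT of −0.03 (−0.09 to 0.04). A difference in *Dcn* was thus not detectable over the whole class. *Bgn*, the X-linked gene of biglycan, stood at 338 CPM in the WT and 444 CPM in the KO class, a log2 ratio of 0.39 (0.21 to 0.58). The *Bgn* ratio was 0.034 with each library clustered alone and 0.083 at 500 or more genes per cell. With both libraries given the same mean shares of the subtypes it was 0.056. *Aspn*, for the SLRP with an aspartate-rich stretch that competes with decorin for collagen, stood at 291 and 578 CPM, a log2 ratio of 0.99 (0.80 to 1.18) or 1.99-fold. *Aspn* thus fell just short of a 2-fold difference.

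Among the class II genes, whose proteins can carry keratan sulfate or bind collagen without it, *Lum* was the only abundant one. *Lum*, for lumican, which limits the sideways growth of fibrils, stood at 3058 CPM (3277 UMIs) in the WT and 2146 CPM (3230 UMIs) in the KO class, a log2 ratio of −0.51 (−0.58 to −0.44). *Fmod*, for fibromodulin, which shares a collagen-binding region with lumican, had 8 UMIs (7.46 CPM) in the WT and 23 UMIs (15.3 CPM) in the KO class, a log2 ratio of 1.03 whose interval ran from −0.18 to 2.40. The sign of the *Fmod* ratio turned under 4 of 10 alternatives, with −1.80 at 500 or more genes per cell as the lowest. *Prelp*, for prolargin, which links collagen to the heparan sulfate of basement membranes, had 16 UMIs (14.9 CPM) and 46 UMIs (30.6 CPM), a log2 ratio of 1.03 (0.19 to 1.95). The *Prelp* ratio was 0.32 once cells were thinned to 2000 UMIs, and 0.41 as a mean of per-cell CPM. The class III gene *Ogn*, for osteoglycin, also called mimecan, stood at 118 CPM (126 UMIs) in the WT and 308 CPM (463 UMIs) in the KO class, a log2 ratio of 1.39 (1.10 to 1.68) or 2.62-fold.

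Of the 7 members with at least 20 UMIs over both libraries, 3 were at least 2-fold higher in the KO class (*Ogn*, *Fmod* and *Prelp*) and 0 at least 2-fold lower, with a median log2 ratio of 0.99. Of all 8135 genes with as many UMIs in the class, 6.18% were at least 2-fold higher and 3.01% at least 2-fold lower, with a median of −0.00. Of the 3, *Fmod* and *Prelp* rest on few UMIs. Summed over the members the level was 6915 CPM in the WT and 6547 CPM in the KO class, a log2 ratio of −0.08 (−0.12 to −0.04), so the total was nearly level while its make-up differed. *Dcn* was 50.3% of the *Dcn* and *Lum* UMIs of the WT class and 58.5% of those of the KO class.

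The class ratios joined libraries with different subtypes, mostly *Crabp1* in the WT and mostly *Mfap4* and *Crabp1* in the KO library, so each subtype was also read alone. In the *Crabp1* subtype 1 of 5 measured members was at least 2-fold higher in the KO library and 0 were lower, where 2.65% of 6148 genes were higher and 3.85% lower. In the *Mfap4* subtype 0 of 6 were at least 2-fold higher or lower, where 12.9% of 4017 genes were higher and 4.28% lower. These 6 include *Fmod*, whose 0 WT UMIs there were set to 3 for the count and the median, so its ratio is only a stand-in. In the *Mfap5* subtype 0 of 6 were higher or lower, where 6.45% of 2357 genes were higher and 3.56% lower. The median ratios of the members were 0.08, −0.13 and −0.19 in these subtypes, beside −0.03, 0.08 and 0.03 over all genes. With so few members measured, these counts are descriptions only.

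**Figure D2:**
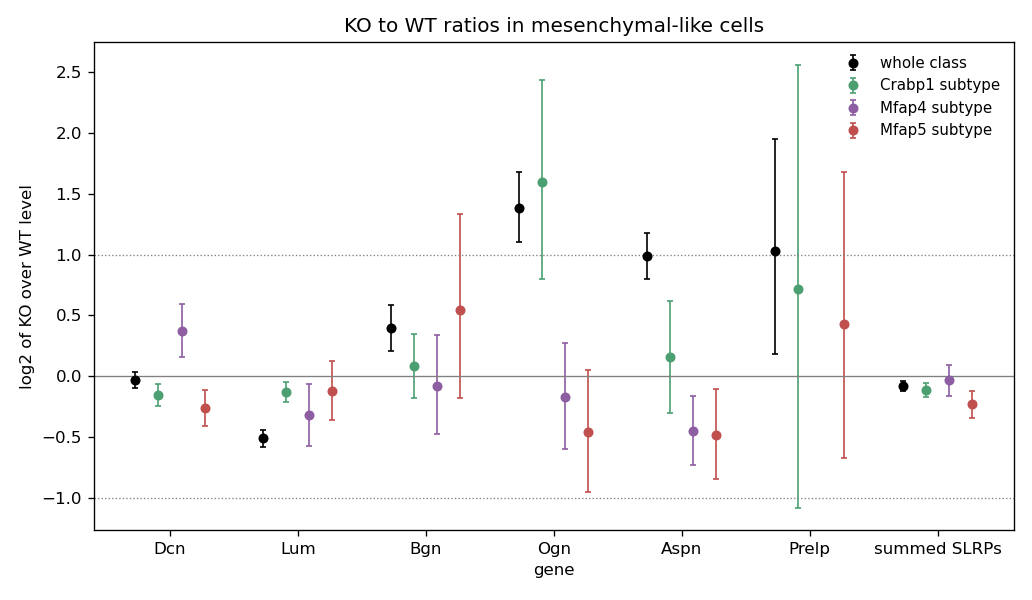
Log2 ratio of KO to WT for each SLRP gene in the whole mesenchymal-like class and in each subtype, with exact conditional binomial 95% intervals; *Fmod*, *Omd* and points with 3 or fewer UMIs in a library are not drawn. *Ogn* and *Aspn* lie above 0 in the class, at 1.39 and 0.99, and below 0 in the *Mfap4* and *Mfap5* subtypes.

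Among the 5 abundant members, *Ogn* and *Aspn* showed the contrast between class and subtype most. *Ogn* stood at 576 CPM in the WT and 511 CPM in the KO cells of the *Mfap4* subtype, a log2 ratio of −0.17 (−0.60 to 0.27), and at 551 and 401 CPM in the *Mfap5* subtype, a log2 ratio of −0.46 (−0.95 to 0.05). In the *Crabp1* subtype *Ogn* had 20 UMIs in 172 WT cells and 43 UMIs in 102 KO cells, 22.6 and 68.5 CPM, a log2 ratio of 1.60 (0.80 to 2.44). *Ogn* was thus higher in the KO library only in the subtype where it was lowest, and there 48.8% of its KO UMIs lay in 3 cells. *Aspn* stood at 1348 CPM in the WT and 988 CPM in the KO cells of the *Mfap4* subtype, a log2 ratio of −0.45 (−0.73 to −0.16), at 998 and 716 CPM in the *Mfap5* subtype (−0.48, −0.84 to −0.11), and at 104 and 116 CPM in the *Crabp1* subtype (0.16, −0.30 to 0.62). With both libraries given the same mean shares of the subtypes, a weighting chosen after seeing the data, *Ogn* stood at 229 CPM in the WT and 222 CPM in the KO class and *Aspn* at 530 and 411 CPM. Their log2 ratios were then −0.05 and −0.37, in place of 1.39 and 0.99, and the number of members at 2-fold or more was 0. Weighted by the WT shares *Ogn* remained above 0 (0.21), at 118 CPM in the WT and 136 CPM in the KO class, whereas the KO shares gave −0.15.

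*Lum* was lower in the KO cells of each subtype, though not in the *Mfap5* subtype under another scaling given below or in the *Crabp1* (0.011) and *Mfap5* (0.25) subtypes with each library clustered alone, and by less than over the class. It stood at 3304 CPM in the WT and 3025 CPM in the KO cells of the *Crabp1* subtype (log2 ratio −0.13, −0.21 to −0.04) and at 1674 and 1339 CPM in the *Mfap4* subtype (−0.32, −0.57 to −0.06). In the *Mfap5* subtype it stood at 2121 and 1951 CPM (−0.12, −0.36 to 0.12), so a difference was not detectable there. With the subtypes weighted alike the ratio of *Lum* was −0.15, in place of −0.51. *Dcn* stood at 2902 CPM in the WT and 2614 CPM in the KO cells of the *Crabp1* subtype (−0.15, −0.24 to −0.06) and at 5749 and 4795 CPM in the *Mfap5* subtype (−0.26, −0.41 to −0.11). In the *Mfap4* subtype the order was the opposite, with 2098 CPM in the WT and 2717 CPM in the KO cells (0.37, 0.16 to 0.60). *Bgn* had log2 ratios of 0.08 in the *Crabp1*, −0.08 in the *Mfap4* and 0.54 in the *Mfap5* subtype, where the interval ran from −0.18 to 1.33, and a difference was not detectable in any of them.

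The rare members gave no KO to WT difference within a subtype that this depth could show. *Fmod* had 20 UMIs in 10 of 119 KO cells of the *Mfap4* subtype (32.1 CPM) and 0 in its 22 WT cells, where 0 UMIs allow up to 32.6 CPM. In the *Crabp1* subtype *Fmod* had 6 WT UMIs and 1 KO UMI, a log2 ratio of −2.09 (−7.62 to 0.95). *Prelp* had 9 UMIs (93.6 CPM) in the WT and 32 UMIs (126 CPM) in the KO cells of the *Mfap5* subtype, a log2 ratio of 0.43 (−0.67 to 1.68). Summed over the members, the log2 ratios were −0.11 (−0.17 to −0.05) in the *Crabp1*, −0.03 (−0.16 to 0.10) in the *Mfap4* and −0.23 (−0.34 to −0.12) in the *Mfap5* subtype.

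These ratios depend on scaling and on where clusters were drawn. Factors from the trimmed mean of M values (TMM) moved all log2 ratios by 0.16 in the *Mfap4* and 0.17 in the *Mfap5* subtype, which turned the sign of the summed level (0.13) and of *Bgn* (0.08) in the former and of *Lum* (0.05) in the latter. With each library clustered alone, which gave no *Mfap4* subtype, the class ratios were 0.55 for *Ogn* and 0.00 for *Aspn*, and 0.04 and −2.63 in the *Crabp1* subtype, while *Dcn* (0.41), *Lum* (0.25) and *Bgn* (−0.48) changed sign in the *Mfap5* subtype. The class ratio of *Lum* was then −0.063 and that of *Bgn* 0.034. At 500 or more genes per cell these class ratios were −0.20 and 0.083. The ratio of *Dcn* in the *Mfap4* subtype was −0.13 at Leiden resolution 0.5 and −0.28 with the SLRP genes among those clustered on, where that of *Bgn* was 0.43 and 0.57. The groups so named then held 56 and 42 WT cells, in place of 22. *Aspn* in the *Crabp1* subtype was below 0 under 4 of 10 alternatives, and in the *Mfap5* subtype it was 0.28 with thinned cells.

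Markers of several other cell types, not all of which are given here, also differed between the mesenchymal-like cells of the libraries. The 10 keratinocyte markers summed to 84.9 CPM in the WT class (7 of 10 found, *Krt10* the most abundant with 44 UMIs, *Krt15*, *Perp* and *Trp63* at 0) and 813 CPM in the KO class (10 of 10, *Lgals7* with 353 UMIs). The 9 melanoblast markers summed to 541 CPM in the WT class (9 of 9, *Ptgds* with 199 UMIs) and 282 CPM in the KO class (8 of 9, *Dct* with 137 UMIs, *Tyrp1* at 0). The 6 neutrophil markers summed to 29.9 CPM in the WT class (4 of 6, *S100a8* with 17 UMIs, *Ltf* and *Retnlg* at 0) and 221 CPM in the KO class (6 of 6, *S100a8* with 172 UMIs). The 8 mast cell markers ran the other way, at 112 CPM in the WT class (6 of 8, *Cma1* with 60 UMIs, *Gata2* and *Fcer1a* at 0) and 18.6 CPM in the KO class (4 of 8, *Cma1* with 14 UMIs, *Mcpt4*, *Gata2*, *Fcer1a* and *Ms4a2* at 0). The 10 macrophage markers summed to 95.2 CPM in the WT class (9 of 10, *C1qc* with 29 UMIs, *Fcgr1* at 0) and 40.5 CPM in the KO class (8 of 10, *Tyrobp* with 28 UMIs, *Fcgr1* and *Adgre1* at 0). The 9 monocyte or dendritic markers summed to 36.4 CPM in the WT class (6 of 9, *Lyz2* with 20 UMIs, *Ly6c2*, *Cd209a* and *H2-Aa* at 0) and 104 CPM in the KO class (7 of 9, *Cd74* with 39 UMIs, *Ly6c2* and *Cd209a* at 0). In the *Mfap4* subtype the 4 tenocyte markers summed to 674 CPM in the WT (4 of 4, *Tnmd* with 45 UMIs) and 198 CPM in the KO cells (4 of 4, *Thbs4* with 69 UMIs). The 9 muscle markers summed there to 500.01 CPM in the WT (7 of 9, *Myog* with 22 UMIs, *Pax7* and *Chrna1* at 0) and 350.1 CPM in the KO cells (8 of 9, *Actc1* with 92 UMIs, *Pax7* at 0). The part of these cells or of their RNA in the SLRP ratios was not tested.

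*Ogn* and *Aspn* differed more between the *Crabp1* subtype and the other subtypes of a library than between the libraries within a subtype. *Ogn* was 25.5-fold higher in the *Mfap4* than in the *Crabp1* subtype in the WT library and 7.46-fold higher in the KO library, and *Aspn* was 12.9-fold and 8.50-fold higher. In the *Mfap5* subtype *Ogn* was 24.3-fold and 5.86-fold and *Aspn* 9.58-fold and 6.16-fold higher than in the *Crabp1* subtype. *Aspn* and *Ogn* thus set the *Mfap4* and *Mfap5* subtypes apart from the *Crabp1* subtype in both libraries. *Prelp* was 13.8-fold and 11.3-fold higher in the *Mfap5* than in the *Crabp1* subtype, and *Dcn* 1.98-fold and 1.83-fold higher. *Lum* ran the other way, 1.56-fold and 1.55-fold higher in the *Crabp1* than in the *Mfap5* subtype, and 1.97-fold and 2.26-fold higher than in the *Mfap4* subtype. *Bgn* was highest in the *Mfap4* subtype, at 641 CPM in the WT and 607 CPM in the KO cells, against 320.3 and 339 CPM in the *Crabp1* and 208 and 303 CPM in the *Mfap5* subtype. Of all *Dcn* and *Lum* UMIs, *Dcn* made up 46.8% and 46.4% in the *Crabp1* subtype, 55.6% and 67.0% in the *Mfap4* subtype and 73.1% and 71.1% in the *Mfap5* subtype of the WT and KO library. The share of decorin transcripts thus ran in the same order of subtypes in both libraries, and the libraries were farthest apart in the *Mfap4* subtype.

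Shares of cells with a UMI followed the levels, but they also follow depth, which was higher in the KO library, with a median of 4414 UMIs per WT and 5346 per KO mesenchymal-like cell. *Dcn* was found in 97.2% of WT and 96.5% of KO cells of the class, and in 91.3% and 92.8% with each cell thinned to 2000 UMIs. *Lum* was found in 96.8% and 92.9%, and in 93.8% and 86.8% thinned, and *Bgn* in 67.7% and 78.0%, and in 41.8% and 53.6% thinned. *Ogn* was found in 21.7% of WT and 57.3% of KO cells, and in 14.9% and 36% thinned. *Aspn* was found in 26.7% and 49.8%, and in 22.6% and 39.6% thinned. *Prelp* was found in 5.53% and 11.4%, and in 2.88% and 3.60% thinned, and *Fmod* in 3.23% and 5.10%, and in 2.40% and 1.20% thinned. The higher shares of *Ogn* and *Aspn* in the KO class remained with equal depth, and those of *Prelp* and *Fmod* did not stand apart. In the *Mfap4* subtype alone *Ogn* was found in 59.1% of the thinned cells of either library, and *Aspn* in 77.3% of WT and 62.6% of KO cells. In the *Crabp1* subtype *Ogn* was found in 3.61% of WT and 6.86% of KO cells when thinned.

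Macrophage-like cells, which should lack these genes, were read as a background, with a median of 5571.5 UMIs in 96 WT and 8125 in 18 KO cells. In the WT library *Dcn* was found in 7.29% of them, *Lum* in 13.5% and *Bgn* in 3.13%, whereas *Ogn* and *Aspn* had 0 UMIs in these 96 cells. In the KO library the shares were 33.3% for *Dcn* and *Lum*, 11.1% for *Bgn*, 16.7% for *Ogn*, 22.2% for *Aspn* and 5.56% for *Fmod*. Thinned to 2000 UMIs, they were 4.21%, 7.37% and 1.05% for *Dcn*, *Lum* and *Bgn* in the WT, and 27.8%, 11.1%, 5.56%, 11.1% and 5.56% for *Dcn*, *Lum*, *Bgn*, *Ogn* and *Aspn* in the KO cells. The shares of the 5 abundant members in the whole mesenchymal-like class lay above these values in both libraries, and that of *Fmod* in the KO library (5.10%) did not. The KO values rest on few cells: 58 of the 90 SLRP UMIs of the 18 macrophage-like cells lay in 1 cell, *Fmod* was found in 1 of them and *Ogn* in 3. *Fmod* was found in 10 of 119 KO cells of the *Mfap4* subtype, 1 of 102 of the *Crabp1* subtype and 0 of 139 melanoblast-like and 81 keratinocyte-like cells. Among other KO cells *Fmod* was found in 3 of 254 glial-like and 1 of 8 adipocyte-like cells. *Ogn* was found in 19 of the 102 KO cells of the *Crabp1* subtype (18.6%), 6 of the 139 melanoblast-like, 6 of the 81 keratinocyte-like and 17 of the 254 glial-like cells. Thinned, *Ogn* was found in 6.86% of the *Crabp1* subtype, beside 11.1% of the macrophage-like cells. *Aspn* was found in 12 of the 102 KO cells of the *Crabp1* subtype, beside 22.2% of the macrophage-like cells, and thinned in 8.82%, beside 5.56%. The shares of *Ogn* and *Aspn* in this subtype were thus not set apart from those of KO macrophage-like cells.

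Cell by cell, some pairs of the abundant members went together and others did not. In cells thinned to 2000 UMIs, a median of 2 SLRP genes per WT cell and 3 per KO cell of the class were found. The median was 4 in the *Mfap4* subtype of either library, and 4 in the WT and 3 in the KO *Mfap5* subtype. It was 2 in the *Crabp1* subtype of either library. Cells with 5 or more SLRP genes made up 40.9% of the WT and 27.8% of the KO *Mfap4* subtype, 30% and 12.1% of the *Mfap5* subtype and 1.20% and 0.98% of the *Crabp1* subtype. Spearman's rho of *Dcn* and *Lum* over thinned cells was 0.38 in the WT and 0.31 in the KO *Crabp1* subtype (166 and 102 cells), 0.56 and 0.46 in the *Mfap4* subtype (22 and 115 cells) and 0.64 and 0.60 in the *Mfap5* subtype (20 and 33 cells). *Dcn* and *Lum* thus went together within each subtype, although between the *Crabp1* and *Mfap5* subtypes their levels ran in different directions in both libraries. For *Ogn* and *Aspn* rho was 0.56 in the WT and 0.35 in the KO class (208 and 250 cells), but 0.19 and 0.19 within the *Crabp1* and 0.32 and 0.17 within the *Mfap4* subtype and 0.34 and 0.026 within the *Mfap5* subtype. Other pairs changed sign between groups of cells. For *Lum* and *Aspn* rho was −0.24 in the WT and −0.16 in the KO class, but 0.062 and 0.34 within the *Mfap4* subtype, and for *Lum* and *Ogn* it was −0.13 and −0.24 in the class, 0.11 and 0.056 within the *Mfap4* and 0.55 and −0.11 within the *Mfap5* subtype. For *Dcn* and *Bgn* it was 0.15 and 0.14 in the class, 0.19 and 0.31 within the *Crabp1*, 0.52 and 0.15 within the *Mfap4* and −0.32 and −0.27 within the *Mfap5* subtype. The cells of a library share its depth and free RNA, and these values are descriptions only.

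Outside the mesenchymal-like class the 8 members summed to 158 CPM (945 UMIs) in the WT and 303 CPM (1059 UMIs) in the KO cells. In the order of the WT library, the unnamed cluster, led by *Ebf1*, *Stmn2* and *Bmp3*, stood at 1622 CPM in the WT and 1410 CPM in the KO cells, and pericyte-like cells at 816 and 1066 CPM. Keratinocyte-like cells stood at 759 and 362 CPM, adipocyte-like cells at 725 and 1615 CPM, and monocyte or dendritic-like cells at 608 and 337 CPM. The WT intervals of the last 4 overlap, and the pericyte-like values rest on 6 WT and 32 KO UMIs. Glial-like cells stood at 111 and 197 CPM, neutrophil-like cells at 64.4 and 128 CPM, endothelial-like cells at 61.0 and 117 CPM, mast cells at 53.8 and 86.7 CPM, erythroid-like cells at 48.5 and 158 CPM, melanoblast-like cells at 42.6 and 142 CPM and macrophage-like cells at 40.6 and 571 CPM. In all 7 of these classes the KO value was the higher, with 1 to 20 UMIs per library in the neutrophil-like, endothelial-like, mast and erythroid-like cells.

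**Figure D3:**
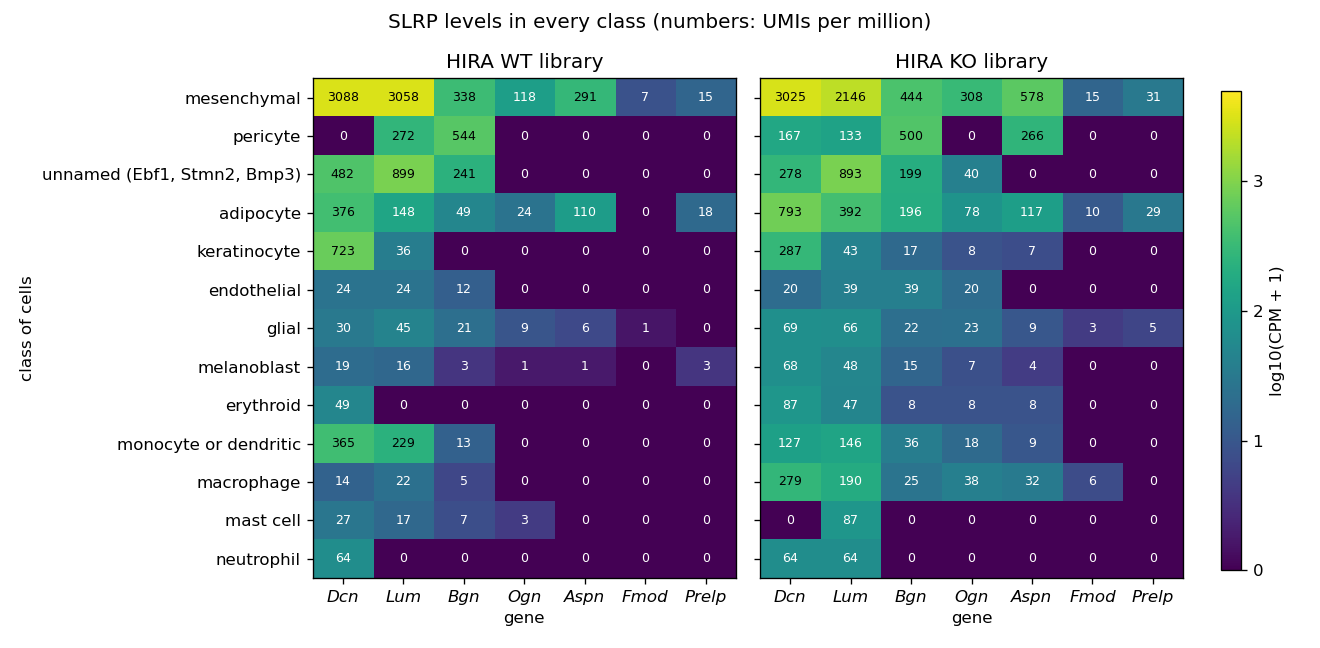
Levels of the SLRP genes (CPM) in each class of cells of the WT and the KO library. The mesenchymal-like class, at 6915 and 6547 CPM summed over the members, stands above every other class in both libraries.

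A few cells decided some of these values. In macrophage-like cells of the KO library 85.6% of the 90 SLRP UMIs lay in 3 cells, and without them the level was 109 CPM in place of 571. In monocyte or dendritic-like cells of the WT library 94.9% of the 138 UMIs lay in 3 cells, and without them the level was 35.8 CPM in place of 608. In keratinocyte-like cells of the WT library 85.7% of the 63 UMIs lay in 3 of 12 cells. In adipocyte-like cells of the KO library 69.1% of the 165 UMIs lay in 3 of 8 cells. In glial-like cells of the WT library 1 of 446 cells held 62 of the 181 UMIs. In the unnamed cluster 70.3% of the 74 WT and 64.8% of the 71 KO UMIs lay in 3 cells. Without them its levels were 808 and 676 CPM in place of 1622 and 1410. The levels of these classes are thus not levels of a typical cell.

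Some classes held the members in proportions unlike those of the mesenchymal-like class. In keratinocyte-like cells *Dcn* stood at 723 CPM (60 UMIs) in the WT and 287 CPM (218 UMIs) in the KO library, or 23.4% and 9.48% of the mesenchymal-like level, whereas *Lum* reached 1.18% and 2.02% of it. *Dcn* made up 95.2% and 86.9% of the *Dcn* and *Lum* UMIs there, beside 50.3% and 58.5% in the mesenchymal-like class. Of the fibroblast genes read there, *Col1a2* and *Pdgfra* had 0 UMIs in the WT keratinocyte-like cells, *Col3a1* had 1 and *Col1a1* had 5 in 4 of 12 cells (60.2 CPM, beside 4010 CPM in the mesenchymal-like class). In the KO ones *Col1a1*, *Col1a2*, *Col3a1* and *Pdgfra* reached 2.87%, 3.41%, 3.34% and 3.88% of the mesenchymal-like level. In keratinocyte-like cells with more *Krt5*, *Krt14* and *Krt15* than *Krt1* and *Krt10*, the keratins of basal and suprabasal cells, *Dcn* stood at 1092 CPM in the WT library (8 cells) and 693 CPM in the KO library (28 cells), against 34.5 and 55.7 CPM in the others. Of the *Dcn* UMIs of keratinocyte-like cells 88.3% lay in 3 cells in the WT library and 30.3% in the KO library.

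In glial-like cells *Ogn* reached 7.30% of its mesenchymal-like level in the WT and 7.35% in the KO library, and *Bgn* 6.36% and 4.90%, whereas *Dcn* reached 0.97% and 2.27%. Of the 14 WT and 27 KO *Ogn* UMIs there 78.6% and 40.7% lay in 3 cells. *Bgn* was the most abundant member in pericyte-like cells, at 544 CPM (4 UMIs) in the WT and 500 CPM (15 UMIs) in the KO library. In the unnamed cluster, which had 5 of 6 dermal condensate markers raised, *Lum* stood at 899 CPM in the WT and 893 CPM in the KO cells and *Dcn* at 482 and 278 CPM, while *Aspn* had 0 UMIs in both. Of the *Lum* UMIs there 73.2% and 82.2% lay in 3 cells, and without the 3 cells richest in *Lum* it stood at 411 and 225 CPM. Without the 3 cells richest in *Dcn*, picked apart from those of *Lum*, *Dcn* stood at 136 and 106 CPM. In adipocyte-like cells *Prelp* had 8 WT and 3 KO UMIs, 17.7 and 29.4 CPM, the same order of size as in the mesenchymal-like class.

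Genes with a like pattern were read over the 20 clusters of at least 20 cells, both libraries summed, as Pearson correlations of log2 levels among 8211 genes. The genes most like *Dcn* were *Lum*, *Scara3* and *Cdon* (0.94 each), *Lrrc17* and *Figf*, and those most like *Lum* were *Pdgfra* (0.96), *Col6a3*, *Vcam1*, *Twist1* and *Col6a2*. Those most like *Bgn* were *Ddr2* (0.97), *Col6a2*, *Serpinf1*, *Lum* and *Mfap4*. Those most like *Ogn* were *Zim1* (0.96), *Abi3bp*, *Angptl1*, *Zcchc5* and *Aspn* (0.94), and those most like *Aspn* were *Nrk* (0.97), *Islr*, *Ly6h*, *Clec3b* and *Zcchc5*. *Lum* was thus among the 5 genes nearest to *Dcn*, and *Aspn* among the 5 nearest to *Ogn*, over clusters that share libraries, depth and free RNA.

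The SLRPs act with collagens, chain-building enzymes, proteases and growth factors, and lists of these were read in the same class, where 6.18% of all genes were at least 2-fold higher and 3.01% lower in the KO library. Of 22 fibrillar collagens and fibril partners 18 were measured, with 5 at least 2-fold higher in the KO class and 0 lower, a median log2 ratio of 0.64 and summed levels of 15202 CPM in the WT and 21159 CPM in the KO class. *Col1a2*, the most abundant, stood at 4360 and 5932 CPM (0.44), and *Col11a1* (1.99), *Col5a3* (1.59) and *Tnxb* (1.48) had the ratios farthest from 0. These class ratios join unlike subtypes. In the *Crabp1*, *Mfap4* and *Mfap5* subtypes 0 of 15, 1 of 17 and 0 of 17 measured fibril genes were at least 2-fold higher and 0 lower. Of all genes, 2.65%, 12.9% and 6.45% were higher in these subtypes and 3.85%, 4.28% and 3.56% lower. The fibril list also had its median above 0 in the *Crabp1* (0.45) and *Mfap4* (0.36) subtypes, and at −0.08 in the *Mfap5* subtype. Of 23 enzymes of chondroitin and dermatan sulfate synthesis 14 were measured, 0 at 2-fold, with a median of 0.39 and 345 and 417 CPM (*Chpf*, the most abundant, 0.58, *Xylt2* 0.87, *Chpf2* 0.82, *Dsel* 0.72). In the *Crabp1*, *Mfap4* and *Mfap5* subtypes the median of this list was −0.10, 0.12 and −0.14, and *Chpf* stood at −0.03, −0.31 and 0.18. Of 12 enzymes of keratan sulfate synthesis 7 were measured, with 1 higher and 0 lower, a median of 0.17 and 119 and 138 CPM (*B4galt1*, the most abundant, 0.29, *B4galt4* 1.51, *Fut8* −0.70, *St3gal3* 0.37). *B4galt4*, the 1 higher gene, had 4 WT and 16 KO UMIs, with an interval of −0.12 to 3.55. In the *Crabp1* subtype 2 genes of this list were measured (median 0.004), in the *Mfap4* subtype 1 (−0.26) and in the *Mfap5* subtype 0.

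Of 18 proteases and maturation genes 9 were measured, 0 at 2-fold, with a median of 0.16 and summed levels of 1214 CPM in the WT and 1304 CPM in the KO class. *Pcolce*, for the enhancer of procollagen cleavage, led this list (0.16), and *Bmp1*, for the procollagen protease that also trims SLRP propeptides, had a ratio of 0.90, *Adamts2* 0.63 and *Htra1* −0.45. Of 26 growth factors and receptors bound by SLRPs 24 symbols were in the gene list and 15 were measured, with 4 higher and 0 lower (beside 6.18% and 3.01% of all genes), a median of 0.54 and 532 and 698 CPM. In that list *Itgb1* was the most abundant (0.24), and *Bmp2* (1.60), *Tgfb3* (1.51) and *Egfr* (1.32) were farthest from 0, each with at most 6 WT UMIs. Within the *Crabp1*, *Mfap4* and *Mfap5* subtypes the median of this list was 0.10, 0.05 and −0.35, with 1 of 12, 0 of 9 and 0 of 3 measured genes at least 2-fold higher and 0 lower. Of all genes in these subtypes, 2.65%, 12.9% and 6.45% were higher and 3.85%, 4.28% and 3.56% lower. Of 24 other proteoglycans 15 were measured, with 2 higher and 0 lower (beside the same shares), a median of 0.17 and 1169 and 1345 CPM (*Gpc3*, the most abundant, 0.10, *Spock2* 1.71, *Gpc1* 1.51, *Sdc4* −0.84). The medians of that list within these subtypes were −0.25, 0.49 and −0.07, with 0 of 12, 2 of 9 and 0 of 7 measured genes higher and 1, 0 and 0 lower (beside the same subtype shares). Those of the proteases were −0.07, 0.45 and −0.26, with 0, 2 and 0 of 7 measured genes higher and 0, 1 and 1 lower (beside the same subtype shares). The summed level of the proteases in the *Mfap4* subtype was 1924 CPM in the WT and 1423 CPM in the KO cells, against the sign of the median. Of the 11 other SLRP family genes only *Tsku* was measured in the class, with 14 WT and 13 KO UMIs (−0.60, −1.80 to 0.60). *Kera*, for keratocan, had 1 WT and 11 KO UMIs in the class, and the 11 lay in 5 cells of the *Mfap4* subtype, 7 of them in 1 cell.

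In GRCm38 the members lie in clusters of the family. *Dcn* (ENSMUSG00000019929, chr10:97479609-97518143) and *Lum* (ENSMUSG00000036446, chr10:97565128-97572703) are neighbours on the plus strand, 46984 bases apart, and are followed by *Kera*, with 1 WT and 11 KO UMIs, and *Epyc*, with 0 and 1. *Aspn* (ENSMUSG00000021388, chr13:49544443-49567565), *Omd* (ENSMUSG00000048368, chr13:49582462-49592822) and *Ogn* (ENSMUSG00000021390, chr13:49608046-49624501) follow each other on the plus strand with gaps of 14896 and 15223 bases, and *Omd*, between the other two, had 0 UMIs. All 3 overlap *Cenpp* on the other strand. *Prelp* (ENSMUSG00000041577, chr1:133910304-133921414, minus strand, overlapped by *Gm15851*) lies 115839 bases from *Fmod* (ENSMUSG00000041559, chr1:134037254-134048277, plus strand), and *Bgn* (ENSMUSG00000031375, chrX:73483602-73495933, plus strand) stands alone.

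**Figure D4:**
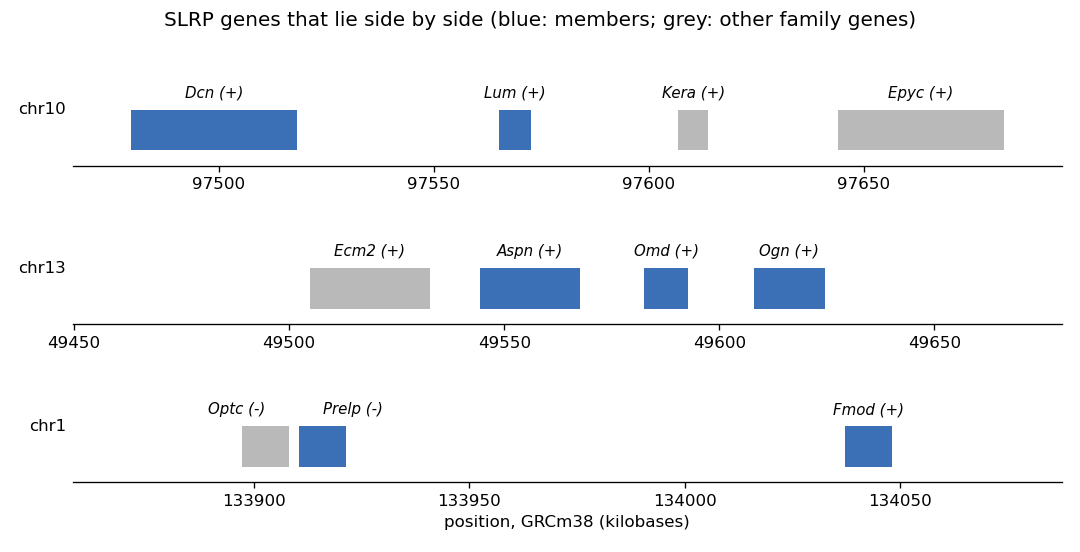
Positions of the SLRP genes in GRCm38, drawn to scale along each chromosome region in kilobases, with each gene's strand. *Dcn* and *Lum* lie side by side on chromosome 10, and *Aspn*, *Omd* and *Ogn* on chromosome 13.

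Promoter sequences from RefSeq (GRCm38.p6), 250 bases before to 50 bases after the start, matched 6 of the 8 members, all but *Dcn* and *Lum*. Those of *Ogn* (chr13:49607765-49608064) and *Aspn* (chr13:49544193-49544492), both on the plus strand, are shown because these neighbouring genes had like patterns over the clusters. Capitals mark matches of CANNTG and TATAAA on either strand.
Ogn: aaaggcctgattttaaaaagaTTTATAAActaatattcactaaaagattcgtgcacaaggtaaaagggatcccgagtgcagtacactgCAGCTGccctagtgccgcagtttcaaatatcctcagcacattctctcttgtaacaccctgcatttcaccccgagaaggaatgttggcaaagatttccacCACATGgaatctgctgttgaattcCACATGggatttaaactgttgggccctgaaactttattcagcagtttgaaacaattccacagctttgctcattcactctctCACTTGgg
Aspn: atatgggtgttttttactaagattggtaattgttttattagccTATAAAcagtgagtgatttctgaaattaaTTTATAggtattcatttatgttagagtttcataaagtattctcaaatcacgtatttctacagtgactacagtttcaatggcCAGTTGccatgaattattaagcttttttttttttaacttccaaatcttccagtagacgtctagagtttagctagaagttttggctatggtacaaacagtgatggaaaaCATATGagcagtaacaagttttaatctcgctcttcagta
TATAAA was found in 2 of the 6 member promoters, those of *Ogn* and *Aspn*, and in 13.6% of 32851 promoters. CANNTG was found in 5 of the 6, all but *Omd*, and in 72.3% of all promoters. CAGCTG, a form of CANNTG, was found in those of *Bgn* and *Ogn* and in 16.3% of all, CCAAT in those of *Aspn*, *Fmod* and *Prelp* and in 37.4%, and GGAATG in that of *Ogn* and in 14.7%. The promoters of *Ogn* and *Aspn* differed in base composition, with 42.3% and 31% of G and C. These matches describe the letters only.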

How the data were processed

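The authors counted UMIs with Cell Ranger 2.2.0 on an mm10 genome extended by tdTomato and Cre, and the deposited counts of each library, unnormalized, were used. The members and gene lists were chosen with earlier results of these data known. Cells with at least 100 genes, at most 40000 UMIs and at most 10% mitochondrial UMIs were kept (6 WT and 18 KO barcodes left out); doublets were not removed. Each cell was scaled to 10000 UMIs before logs were taken. Then 1989 variable genes, without SLRP family genes, sex-linked genes, *Hira* and reporters, gave 30 principal components, 15 neighbours and 22 Leiden clusters (resolution 1, seed 0), 21 of which were named. Clusters were named by class, from the list with most of its markers raised (at least 10% of cells, at least 1 log2 unit above the other cells with 10 CPM added), with at least 3 raised, unless its 10 leading genes held more markers of another class. UMIs were summed per class and scaled to CPM, with exact Poisson, Clopper-Pearson and conditional binomial 95% intervals. A count of 0 was limited by 3 counts. Thinning to 2000 UMIs left out 102 WT and 23 KO cells. Fold counts took genes with at least 20 UMIs over both libraries, a count of 0 set to 3. The procedures were checked on simulated counts.

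Named genes are the 8 members, the other SLRP family genes, the 5 genes most like each member with at least 100 UMIs, the most abundant gene and the 3 of at least 20 UMIs farthest from 0 in each list, cell type markers, *Hira*, *Xist* and *Eif2s3y*. *Kera* details, leading genes of clusters, genes overlapping members and *Col1a1* to *Pdgfra* in keratinocyte-like cells were chosen after their values were seen. Some marker sums and cluster levels are not reported here. Coordinates are those of GENCODE M21. Alternatives were other cell filters, clusterings, doublet removal, summaries and scalings, and minimum UMIs. Reads and the study's other libraries were not used here. Tools were edgeR 4.0.16 in R 4.3.3 and, in Python 3.11.15, anndata 0.12.19, igraph 0.11.9, matplotlib 3.10.9, numpy 2.4.6, pandas 2.3.3, scanpy 1.11.5, scikit-image 0.26.0 and scipy 1.17.1.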

Additional observations from a re-analysis of the deposited data

Results flagged for a closer look

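*Dcn* stood apart because the counting intervals of its ratio lay on opposite sides of 0 in different mesenchymal subtypes. Its log2 ratio of KO to WT was 0.37 in the *Mfap4* subtype (193 WT and 1692 KO UMIs), −0.15 in the *Crabp1* subtype (2564 and 1642 UMIs) and −0.26 in the *Mfap5* subtype (553 and 1219 UMIs). The ratio in the *Mfap4* subtype was −0.13 at Leiden resolution 0.5 and −0.28 with the SLRP genes among those clustered on, and that in the *Mfap5* subtype was 0.41 with each library clustered alone. The cells under these names changed as well. The *Mfap4* group held 56 WT and 160 KO cells at resolution 0.5 and 42 and 143 with SLRP genes clustered on, in place of 22 and 119. With each library alone the *Mfap5* group held 51 and 30 cells, in place of 23 and 34. The difference between the subtypes was not tested, since each genotype has 1 library.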

How the results depend on the processing

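The summed class ratio (−0.08) was −0.028 at 500 or more genes, 0.032 with each library clustered alone, −0.13 without Scrublet doublets (9 WT and 6 KO cells), −0.18 as a mean of per-cell CPM and −0.18 with thinned cells. The number of SLRPs at 2-fold (3) was 1 with each library alone and 1 thinned; with subtypes weighted by mean, WT or KO shares, chosen after seeing the data, it was 0, 0 and 1. Those weights gave *Aspn* −0.37, −0.25 and −0.41 and *Ogn* −0.046, 0.21 and −0.15. They gave *Lum* −0.15, −0.14 and −0.18 and *Bgn* 0.056, 0.087 and 0.032. The summed ratio of the *Crabp1* subtype (−0.11) was −0.26 at Leiden resolution 2, −0.19 with SLRP genes clustered on and −0.24 thinned. That of the *Mfap4* subtype (−0.03) was −0.21, −0.23, −0.19 without doublets, −0.20 as a mean and 0.13 with TMM. That of the *Mfap5* subtype (−0.23) was 0.18 with each library alone and −0.063 with TMM. Libraries alone also gave *Lum* 0.011 in the *Crabp1* and *Dcn* 0.41 in the *Mfap5* subtype. *Dcn* in the *Mfap4* subtype was −0.13 at resolution 0.5 and −0.28 with SLRP genes clustered on, and *Aspn* in the *Mfap5* subtype 0.28 thinned. Of all genes, 3.58% were higher and 1.40% lower at 50 or more UMIs, and 13.1% and 15.6% with at least 1 UMI, as fewer or more low counts entered; other causes were not tested. Of the members' class ratios, 53 of 70 values stayed within their interval and 17 moved past it, as did 148 and 18 of 171 in the subtypes, where the other 5 changed sign although their interval lay on 1 side of 0. Of these alternatives, 6 class and 26 subtype values had the other sign; the weightings above and the cells left out below are not counted among them. Without the 3 cells of each class and library richest in SLRP UMIs, also chosen after seeing the data, all 20 subtype ratios stayed within their interval. These cells were picked over the whole class and not within a subtype, so a subtype could lose none of them. There was no *Mfap4* subtype at 500 or more genes or with libraries alone, and no *Mfap5* subtype at resolution 0.5 or with SLRP genes clustered on. With 22 WT cells in the *Mfap4* subtype, 0 counts there allow 32.6 CPM.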

Other observations

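*Chadl*, for the chondroadherin-like member of the family, was found mostly outside the mesenchymal-like class. Glial-like cells held 97 of its 109 WT UMIs and 66 of its 85 KO UMIs, at 59.5 and 55.2 CPM, whereas mesenchymal-like cells stood at 4.67 and 8.64 CPM. The genes most like *Chadl* over the 20 clusters were *Dmd* (0.95), *Bche*, *Ttyh1*, *Gal3st1* and *Adgrg6*, and *L3mbtl2* overlaps it on the other strand.

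*Tsku*, for tsukushi, had 38 WT and 46 KO UMIs, of which 36.8% and 28.3% were in mesenchymal-like cells. *Ecm2*, next to *Aspn*, had 8 and 14 UMIs, *Podn* 4 and 8, *Optc* 0 and 4, *Podnl1* 4 and 0, *Chad* 3 and 0, *Nepn* 1 and 0, and *Nyx* 0 in both libraries.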
